A study of Mus musculus with 2 samples.

Results

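Cathepsins are the proteases of the lysosome, and cystatin C is the secreted inhibitor of the cysteine members of that family. The genes described here are Ctsa, Ctsb, Ctsc, Ctsd, Ctsh, Ctsk, Ctsl, Ctss, Ctsz and Cst3, which were taken by symbol and are 10 of the 31053 gene rows in each library. They were measured as unique molecular identifier (UMI) counts in single cells from the vitreous of C57BL/6 mice whose eyes had been injected with zymosan, a yeast cell wall preparation that draws in leukocytes. The mice received either aCXCR2, an antiserum to the chemokine receptor CXCR2, or the control antiserum treatment labelled NRS. Cells came from vitreous fluid and from a wash of the retina, were enriched with magnetic beads against the neutrophil surface protein Ly6G, and gave 1 droplet library (10x, 3′ ends) per treatment. Zymosan and the Ly6G enrichment are thus shared by both groups, and no eye without zymosan was part of the comparison. The number, age and sex of the mice and the time after injection are not given in the sources used here. The libraries come from a study of a neutrophil subset and its effect on neuron survival and axon regrowth.

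Most cathepsins are made as inactive precursors, carried to the lysosome by mannose 6-phosphate receptors, and activated there at acid pH. Ctsb, Ctsc, Ctsh, Ctsk, Ctsl, Ctss and Ctsz encode cysteine proteases, Ctsd an aspartic protease and Ctsa a serine carboxypeptidase. Cathepsin C is known in neutrophils as the enzyme that activates the granule serine proteases. Cathepsin S trims the invariant chain of MHC class II in antigen-presenting cells. Cathepsin K is the collagen-degrading protease of osteoclasts and is also made by some macrophages.

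Ctsk and Ctss are neighbours on the same strand of chromosome 3, with 17398 bases between the end of Ctsk and the start of Ctss (RefSeq, GRCm38.p6). The 250 bases before each start site are shown, 5′ to 3′, because these adjacent genes had different patterns across cell classes. Capitals mark GAGGAAG on either strand, a purine-rich core of sites for the myeloid factor PU.1. The windows are chr3:95498960-95499209 (plus strand) for Ctsk and chr3:95526536-95526785 (plus strand) for Ctss.
Ctsk: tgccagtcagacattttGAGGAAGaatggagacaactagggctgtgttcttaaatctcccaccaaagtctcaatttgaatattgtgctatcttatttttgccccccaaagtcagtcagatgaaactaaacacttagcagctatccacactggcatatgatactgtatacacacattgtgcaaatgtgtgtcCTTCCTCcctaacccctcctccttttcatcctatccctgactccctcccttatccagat
Ctss: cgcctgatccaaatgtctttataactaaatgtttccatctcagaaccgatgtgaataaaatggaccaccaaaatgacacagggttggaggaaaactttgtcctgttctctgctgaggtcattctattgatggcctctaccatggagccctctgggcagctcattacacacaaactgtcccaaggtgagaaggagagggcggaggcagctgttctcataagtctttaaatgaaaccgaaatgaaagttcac
These letters stood in the Ctsk window at 233 and 59 bases before the start site, counted to the leftmost base of the match, and were not in the Ctss window. The Ctss window held gaggaaa, which differs from GAGGAAG in the last letter only. Of 32851 such windows in the table, 10.6% held GAGGAAG. Of the 10 genes, 8 had a window, and the windows of 2 (Ctsk and Ctsc) held it. The E-box CACGTG, which reads the same on both strands and is the core of the sites of the lysosomal regulator TFEB, stood in windows of 3 of the 8 genes (Ctsa, Ctsd and Ctsl), against 6.02% of all windows. The Ctsa match was in a window inside the gene (chr2:164833523-164833772) and not in the window before its first start. The 8 genes had 9 windows, of which 6 overlapped a transcript. The counts are of genes and the percentages of windows. A match describes these letters only. Ctsb and Ctsh had no window in the table.

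The NRS library held 7314 barcodes with 61386486 UMIs, and the aCXCR2 library 5551 barcodes with 85748842 UMIs. A barcode was kept as a cell when it carried 500 or more UMIs from 200 or more genes and no more than 10% of them were mitochondrial, which left 5655 (NRS) and 4826 (aCXCR2) cells with median depths of 4759 and 10384 UMIs. The 2 libraries shared 101 barcodes, 53 of them kept in both. Cells were clustered without the 10 genes and named from marker genes. Neutrophil-like clusters held 42.1% of the NRS cells and 52.4% of the aCXCR2 cells, although both libraries are labelled Ly6G+. Levels are given as CPM, the UMIs of a gene per 1000000 UMIs of the group of cells. Ly6g itself was at 18.5 CPM in the neutrophil-like cells of the NRS library and at 125 CPM in those of the aCXCR2 library. Mononuclear phagocyte-like clusters (macrophage, monocyte or dendritic markers) held 10.6% and 36.6% of cells, and photoreceptor-like clusters 11.4% and 4.35%. In NRS the neutrophil-like class was mostly clusters 1, 9 and 4, and in aCXCR2 mostly clusters 2, 6 and 11. The phagocyte-like class was mostly clusters 12, 10 and 3 under NRS and clusters 3, 7 and 10 under aCXCR2. With 1 library per treatment there was no replicate, so no test was made. All intervals are 95% intervals that cover counting error only, and a difference outside them compares these 2 libraries and not the treatments.

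The largest unnamed cluster, cluster 0, matters for cathepsin K and is kept apart throughout. It held 1213 NRS cells (21.45%) and 121 aCXCR2 cells (2.51%), and its leading genes included Gpnmb, Itpr2, Ccrl2, Cstb, Gdf15, Cd63 and Psap. No marker list scored high enough to name it. The 11 neutrophil markers summed to 5040 CPM in its NRS cells, against 52914 CPM in neutrophil-like, 1826 CPM in phagocyte-like and 2224 CPM in photoreceptor-like cells. In aCXCR2 these sums were 17689, 170007, 3872 and 5170 CPM. The 13 macrophage markers summed to 861 CPM under NRS and 688 CPM under aCXCR2, close to the 1000 and 680 CPM of neutrophil-like cells and far under the 39483 and 19660 CPM of phagocyte-like cells. Of these 13 markers, 11 were above photoreceptor-like cells in its NRS cells and 10 in its aCXCR2 cells, against 10 and 10 in neutrophil-like cells. The lipid receptor gene Trem2 was at 79.2 CPM in its NRS cells, against 40.5 CPM in neutrophil-like, 863 CPM in phagocyte-like and 5.40 CPM in photoreceptor-like cells, and Adgre1 (F4/80) was at 115, 115, 351 and 3.48 CPM in the same order. The receptor gene Csf1r was at 142, 231, 663 and 12.4 CPM, and the complement gene C1qa at 12.4, 16.3, 2259 and 8.04 CPM. Of the neutrophil markers, Cxcr2 was at 36.8, 617, 6.97 and 28.6 CPM in that order under NRS, and Mmp9 at 432, 1299, 849 and 59.2 CPM. All 11 neutrophil markers were above photoreceptor-like cells in cluster 0 in both libraries, as they were in neutrophil-like cells. In phagocyte-like cells 5 (NRS) and 8 (aCXCR2) of the 11 were. Cluster 0 is called the Gpnmb-led cluster here, and no cell type is given to it.

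Cathepsin K transcripts were concentrated in the Gpnmb-led cluster, were lower in phagocyte-like cells and were close to background in neutrophil-like cells. In the NRS library Ctsk was at 157 CPM in the Gpnmb-led cluster (1063 UMIs, interval 147 to 166), at 27.5 CPM in phagocyte-like cells (426 UMIs, 24.9 to 30.2) and at 7.42 CPM in neutrophil-like cells (80 UMIs, 5.88 to 9.24). In the aCXCR2 library it was at 149 CPM (158 UMIs, 126 to 174), 12.9 CPM (704 UMIs, 11.999 to 13.9) and 1.66 CPM (37 UMIs, 1.17 to 2.29). The order of the 3 groups was thus the same in both libraries, with intervals that did not overlap. Photoreceptor-like cells, which serve as the background, had 3.84 CPM (2.63 to 5.42) under NRS and 1.28 CPM (0.155 to 4.61) under aCXCR2. The neutrophil-like level lay above that background under NRS, and the intervals overlapped under aCXCR2. Lens-like cells, at 18.5 CPM under NRS (9.22 to 33.0), could not be placed apart from the phagocyte-like cells.

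**Figure D1:**
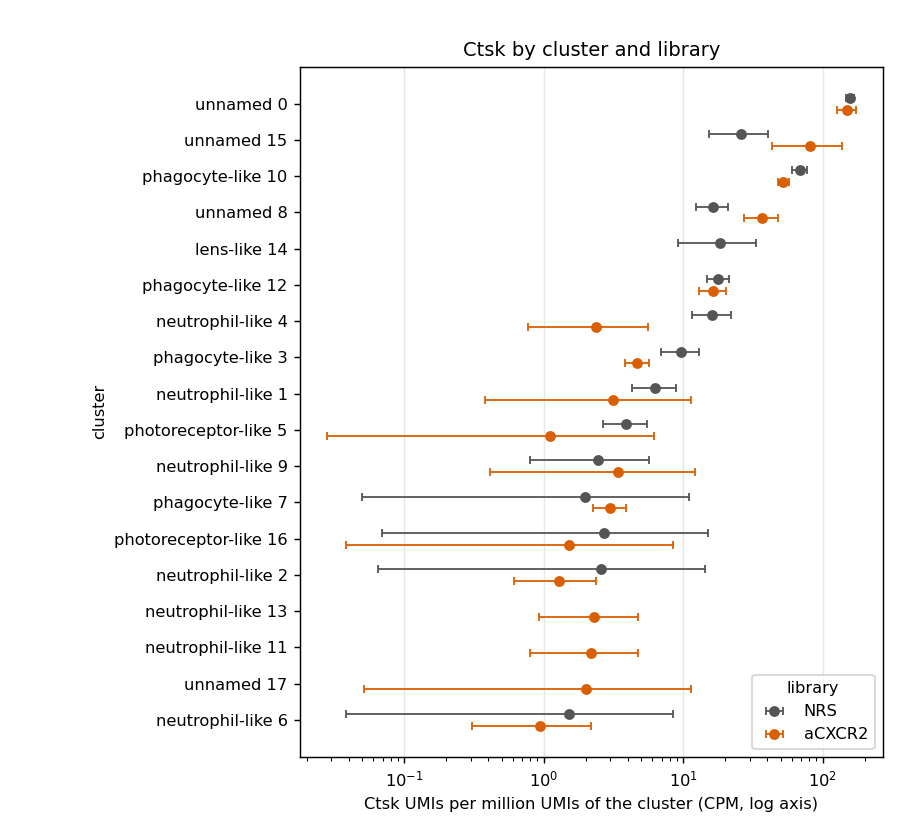
Ctsk level in each cluster and library of at least 20 cells, as CPM of the cluster on a log axis (a cluster with 0 Ctsk UMIs is not drawn), with the NRS library in grey and the aCXCR2 library in orange; bars are 95% Poisson intervals for counting error. The Gpnmb-led cluster (unnamed 0) is at 157 and 149 CPM, phagocyte-like cluster 10 follows among the named clusters at 68.4 and 52.0 CPM, and neutrophil-like clusters lie at or under 16.2 CPM.

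Set against neutrophil-like cells, Ctsk was 3.70-fold higher in phagocyte-like cells of the NRS library (log2 ratio 1.89, interval 1.54 to 2.25) and 7.78-fold higher in the aCXCR2 library (log2 ratio 2.96, 2.48 to 3.48). Against the same neutrophil-like cells, the Gpnmb-led cluster was 21.1-fold higher under NRS (16.8 to 26.8) and 89.3-fold higher under aCXCR2 (62.1 to 132). With that cluster counted as neutrophil, the phagocyte over neutrophil log2 ratio turned to -1.24 under NRS and was 0.63 under aCXCR2. With coarser clustering (Leiden resolution 0.5) the NRS ratio was 4.04. At that setting clusters of 1767 and 1160 NRS cells were unnamed. The neutrophil-like class was then left with clusters of 347 and 467 NRS cells, against 2381 cells in the main clustering. In the NRS library the order of neutrophil-like and phagocyte-like Ctsk thus depended on where the Gpnmb-led cluster was placed, and in the aCXCR2 library it did not.

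Within each class, clusters differed widely. Among neutrophil-like clusters of the NRS library, Ctsk ran from 1.52 CPM in cluster 6 to 16.2 CPM in cluster 4, a cluster of 502 cells whose leading genes included Prok2, Ccrl2, Ccl3 and Cxcl2. Without cluster 4 the NRS phagocyte over neutrophil log2 ratio was 2.54 in place of 1.89. Among phagocyte-like clusters, cluster 10, whose leading genes included Arg1, Fn1 and F13a1, had the most Ctsk at 68.4 CPM under NRS and 52.0 CPM under aCXCR2. Clusters 12 (17.9 and 16.3 CPM) and 3 (9.63 and 4.70 CPM), both led by Apoe, Pf4 and complement genes, and cluster 7 (1.98 and 3.01 CPM), led by MHC class II genes, were lower. The phagocyte-like level of Ctsk was thus led by 1 of 4 clusters. Unnamed cluster 15, led by Ttr and Ptgds, reached 25.8 CPM (NRS, 93 cells) and 80.6 CPM (aCXCR2, 28 cells). Unnamed cluster 8 scored for both rod and neutrophil markers. Its Ctsk was at 16.2 CPM (NRS, 545 cells, 59 UMIs) and 36.4 CPM (aCXCR2, 126 cells, 51 UMIs).

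Counted by cell, 231 of 1213 NRS cells of the Gpnmb-led cluster had a Ctsk UMI, with up to 38 UMIs in a cell. Their neutrophil markers summed to 3037 CPM and their macrophage markers to 870 CPM, against 5688 and 859 CPM in the cells of that cluster without a Ctsk UMI. Gpnmb stood at 1578 CPM in the cells with a Ctsk UMI and at 558 CPM in those without. In the aCXCR2 library 20 of 121 cells had a Ctsk UMI, with up to 50 UMIs in a cell, and 10 cells held 88.0% of the UMIs. The aCXCR2 level of this cluster and its ratio over neutrophil-like cells thus rest on few cells. Among neutrophil-like cells, 42 of 2381 under NRS and 36 of 2528 in aCXCR2 had any, 25 and 35 of them a single UMI. The 42 NRS cells had S100a8, the neutrophil calgranulin gene, at 13857 CPM, against 25995 CPM in the rest of their class, and the 36 aCXCR2 cells had it at 74038 against 79696 CPM. In NRS 10 cells held 51.2% of the neutrophil-like Ctsk UMIs, with up to 7 in a cell, so the class level there rests on few cells.

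Depth differed between the classes, with median depths of 4265 (NRS) and 7635 UMIs (aCXCR2) in neutrophil-like, 23604 and 30050 in phagocyte-like, 5386 and 8513 in the Gpnmb-led cluster and 5420 and 5552 in photoreceptor-like cells. Cells were therefore thinned to 1000 UMIs, and shallower cells were left out (170 and 44 neutrophil-like, 12 and 5 phagocyte-like, 43 and 4 of the Gpnmb-led cluster, 18 and 9 photoreceptor-like). At that depth 8.03% of NRS cells of the Gpnmb-led cluster had a Ctsk UMI (6.54 to 9.74), against 4.59% of phagocyte-like cells (3.05 to 6.61), 0.452% of neutrophil-like cells (0.217 to 0.830) and 0.159% of photoreceptor-like cells (0.00404 to 0.885). In aCXCR2 these shares were 9.40% (4.79 to 16.2), 1.08% (0.650 to 1.68), 0.161% (0.0439 to 0.412) and 0 of 201 cells, which allows up to 1.49%. These shares come from a random draw of UMIs. Over all possible draws the expected NRS shares were 8.07% (Gpnmb-led cluster), 2.65% (phagocyte-like) and 0.598% (neutrophil-like). The 2.65% lies under the interval of the drawn phagocyte-like share, so the drawn 4.59% is too high. Expected aCXCR2 shares were 7.28%, 1.26% and 0.167% in the same order. In the draw, the neutrophil-like share was not distinguishable from the photoreceptor-like share in either library. Before thinning the shares were 19.0%, 22.8%, 1.76% and 1.40% under NRS, and 16.5%, 13.4%, 1.42% and 0.952% under aCXCR2.

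Between the libraries, Ctsk over all cells was at 35.5 CPM under NRS and 11.8 CPM under aCXCR2 (log2 ratio -1.59, -1.70 to -1.47). Within the Gpnmb-led cluster it differed little (log2 ratio -0.08, -0.33 to 0.17). The aCXCR2 value there rests on 20 cells with a Ctsk UMI, and the interval does not cover spread between cells. Ctsk was lower under aCXCR2 in neutrophil-like cells (log2 ratio -2.16, -2.76 to -1.58) and phagocyte-like cells (-1.09, -1.26 to -0.91). The Gpnmb-led cluster held 62.9% of all Ctsk UMIs of the NRS library and 16.3% of those of the aCXCR2 library. Phagocyte-like cells held 25.2% and 72.7%, and neutrophil-like cells 4.74% and 3.82%. The neutrophil-like difference was -0.10 at the coarser clustering, with its smaller neutrophil-like class, and -1.57 without cluster 4. That cluster alone went from 16.2 CPM under NRS to 2.38 CPM under aCXCR2. In photoreceptor-like cells, where the aCXCR2 value is 2 UMIs, the log2 ratio was -1.59 (-4.69 to 0.38), and barcodes outside the cell filter had 3.69 and 4.83 CPM. The part of free RNA in the neutrophil-like difference was not tested.

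The lysosomal endopeptidases Ctsb, Ctsl and Ctss were all highest in phagocyte-like cells. Ctsb, a broad cysteine protease, was at 6362 CPM in phagocyte-like, 2868 CPM in the Gpnmb-led cluster, 1321 CPM in neutrophil-like and 315 CPM in photoreceptor-like NRS cells. In aCXCR2 it was at 3575, 2834, 892 and 260 CPM, the same order. Ctss was at 3137, 374, 250 and 20.9 CPM under NRS and at 2735, 442, 247 and 44.7 CPM under aCXCR2, so its phagocyte-like excess over neutrophil-like cells (12.6-fold and 11.1-fold) was larger than that of Ctsb (4.81-fold and 4.01-fold). Ctsl was at 1660 CPM in phagocyte-like and 171 CPM in neutrophil-like NRS cells, and at 1456 and 198 CPM under aCXCR2. Its photoreceptor-like level, 188 CPM under NRS and 203 CPM under aCXCR2, was no lower than that of neutrophil-like cells. Ctsl made up 19.6% of the cathepsin UMIs of NRS photoreceptor-like cells and 6.56% of those of all NRS cells. Photoreceptor-like cells are therefore used for this gene as a comparison group only. Barcodes outside the cell filter had Ctsl at 407 CPM (NRS) and 421 CPM (aCXCR2). The part of free RNA in the photoreceptor-like level was not tested. The highest Ctsl level was in unnamed cluster 15, at 4548 CPM under NRS. Neighbouring in the genome, Ctss and Ctsk thus stood in opposite order in the Gpnmb-led cluster and phagocyte-like cells.

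**Figure D2:**
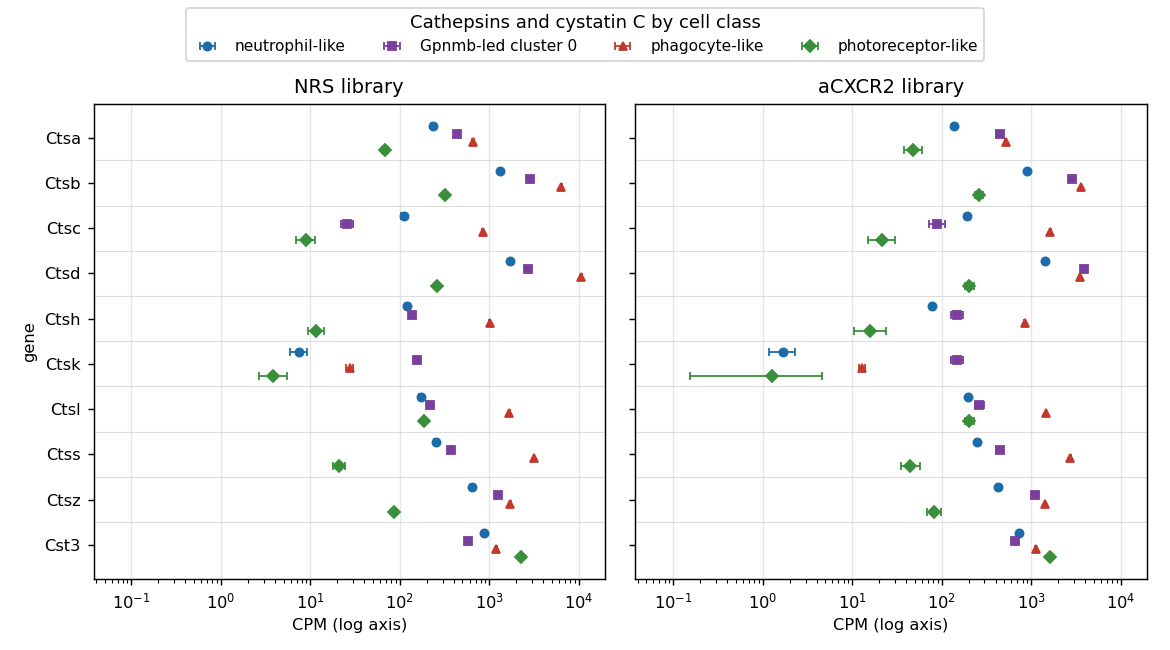
Level of each of the 10 genes in 4 groups of cells, as CPM on a log axis, with the NRS library on the left and the aCXCR2 library on the right; bars are 95% Poisson intervals. In both panels all 10 genes are higher in phagocyte-like (triangles) than in neutrophil-like cells (circles), Ctsk is highest in the Gpnmb-led cluster (squares), and Cst3 is highest in photoreceptor-like cells (diamonds).

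The exopeptidases did not share a pattern. Ctsc, the dipeptidase that activates neutrophil granule proteases, was at 838 CPM in phagocyte-like, 110 CPM in neutrophil-like, 25.6 CPM in the Gpnmb-led cluster and 8.88 CPM in photoreceptor-like NRS cells. In aCXCR2 it was at 1636, 193, 89.3 and 21.7 CPM. It was the only one of the 9 cathepsins that was lower in the Gpnmb-led cluster than in neutrophil-like cells in both libraries (log2 ratio -2.10, -2.34 to -1.87, under NRS and -1.11, -1.42 to -0.82, under aCXCR2). Ctsh, an aminopeptidase, was at 1012, 121, 136 and 11.5 CPM in the same order of groups under NRS, and at 846, 78.6, 148 and 15.97 CPM under aCXCR2. Ctsz, a carboxypeptidase, was flatter, at 1700, 634, 1236 and 86.2 CPM under NRS and 1430, 426, 1092 and 82.4 CPM under aCXCR2.

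Ctsd, the main aspartic protease of the lysosome, was the most abundant of the 10 genes in neutrophil-like cells (1708 CPM under NRS and 1417 CPM under aCXCR2). Each UMI stands for 1 captured transcript whatever its length, although capture can differ between genes. In phagocyte-like cells it was at 10646 CPM under NRS and 3510 CPM under aCXCR2, and in the Gpnmb-led cluster at 2698 and 3862 CPM. Phagocyte-like cluster 12 reached 17037 and 15089 CPM. Ctsa, the carboxypeptidase also called protective protein, was at 654 and 519 CPM in phagocyte-like, 438 and 442 CPM in the Gpnmb-led cluster and 233 and 137 CPM in neutrophil-like cells.

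At equal depth (cells thinned to 1000 UMIs), the abundant members were detected in most phagocyte-like cells and in many neutrophil-like cells. Under NRS, a Ctsd UMI was found in 93.5% of phagocyte-like cells (91.2 to 95.4), 85.3% of the Gpnmb-led cluster (83.1 to 87.3), 71.4% of neutrophil-like cells (69.4 to 73.2) and 22.0% of photoreceptor-like cells (18.8 to 25.5). Under aCXCR2 these shares were 78.0%, 91.5%, 66.4% and 17.9%, so the Gpnmb-led cluster came first there. Ctss separated phagocyte-like from neutrophil-like cells more sharply, with 81.6% against 18.1% under NRS and 86.6% against 21.6% under aCXCR2, above photoreceptor-like shares of 2.87% and 6.47%. Ctsl was detected in 12.9% of NRS neutrophil-like cells (11.6 to 14.4), below the 20.1% of photoreceptor-like cells (17.0 to 23.4). Before thinning the neutrophil-like shares were 93.1% and 96.1% for Ctsd, 47.4% and 66.0% for Ctss and 42.3% and 65.3% for Ctsl.

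Read against all genes, the phagocyte-like excess of the cathepsins was broad. Of 3483 genes with at least 50 CPM in 1 of the 2 sums under NRS, 14.2% were higher by 2-fold or more in phagocyte-like than in neutrophil-like cells, and 25.7% lower by as much. Of the 9 members that reached 50 CPM, 8 were higher by that much, Cst3 was not, and 0 were lower. Ctsk did not reach 50 CPM in these sums. In aCXCR2, 27.3% of 3133 genes were higher by 2-fold or more and 15.1% lower, and the members gave the same counts of 8 and 0. The median log2 ratio of the 10 members was 2.45 under NRS and 2.44 under aCXCR2, against -0.42 and 0.27 over all genes measured. With TMM scaling the counts over all genes changed from 493 higher and 895 lower to 647 and 608 under NRS, and from 854 and 472 to 643 and 680 under aCXCR2, and all 10 members stayed on the higher side. Under aCXCR2 the ratio of Ctsd, 1.31, became 0.983 with TMM and 0.981 as a mean of single-cell CPM, which leaves 7 members past 2-fold. For the Gpnmb-led cluster over neutrophil-like cells under NRS, 5.59% of 3504 genes were higher by 2-fold or more and 10.2% lower. Of the 10 members, 2 were higher by that much (Ctsk and Ctsb) and 1 lower (Ctsc), with a median log2 ratio of 0.62 against 0.19 over all genes. Under aCXCR2, 29.1% of 3197 genes were higher by 2-fold or more and 12.1% lower, and 5 members were higher (Ctsa, Ctsb, Ctsd, Ctsk and Ctsz) and 1 lower (Ctsc), with a median of 1.13 against 0.50.

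Between the libraries, few members moved past 2-fold inside a class. In neutrophil-like cells 2.06% of 3061 genes were higher by 2-fold or more in the aCXCR2 library and 10.2% lower, and 0 of the 9 members measured were in either set with total-UMI scaling. Ctsc was the highest of them, from 110 CPM under NRS to 193 CPM under aCXCR2 (log2 ratio 0.82, 0.72 to 0.91). It passed 2-fold with TMM (1.47), at resolution 0.5 (1.44) and with the Gpnmb-led cluster added (1.29). Ctsl was at 0.21 (0.13 to 0.29), Ctss at -0.02 (-0.08 to 0.05) and Ctsa at -0.77 (-0.84 to -0.69). Ctsb (-0.57), Ctsd (-0.27), Ctsh (-0.62), Ctsz (-0.57) and Cst3 (-0.25) were lower with total-UMI scaling and turned to 0.08, 0.38, 0.03, 0.08 and 0.40 with TMM factors, which raised every ratio in this comparison by 0.65. The median over all genes was -0.42, and the 11 neutrophil markers alone went from 52914 to 170007 CPM. TMM also changed the counts over all genes from 63 higher and 313 lower to 267 and 26. The direction of these 5 members in neutrophil-like cells therefore depended on the scaling.

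In phagocyte-like cells, where TMM moved every ratio by -0.0042, 4.59% of 2852 genes were higher by 2-fold or more in the aCXCR2 library and 2.56% lower. Of the 9 members measured, 0 were higher and 1 was lower, Ctsd, at a log2 ratio of -1.60 (-1.61 to -1.59). Ctsb followed at -0.83 (-0.84 to -0.82), and Ctsc was on the higher side at 0.96 (0.94 to 0.99). The class differed in make-up between the libraries, and cluster 12, with the most Ctsd, held 44.8% of its UMIs under NRS and 8.89% under aCXCR2, while cluster 7, with the least, held 3.26% and 33.6%. Within single clusters Ctsd was still lower in aCXCR2 in 4 of 4, at 7107 against 3237 CPM in cluster 3, 4163 against 2513 CPM in cluster 10, 17037 against 15089 CPM in cluster 12 and 1405 against 1269.5 CPM in cluster 7. The class value thus combines a lower level within clusters and a different mix of clusters.

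**Figure D3:**
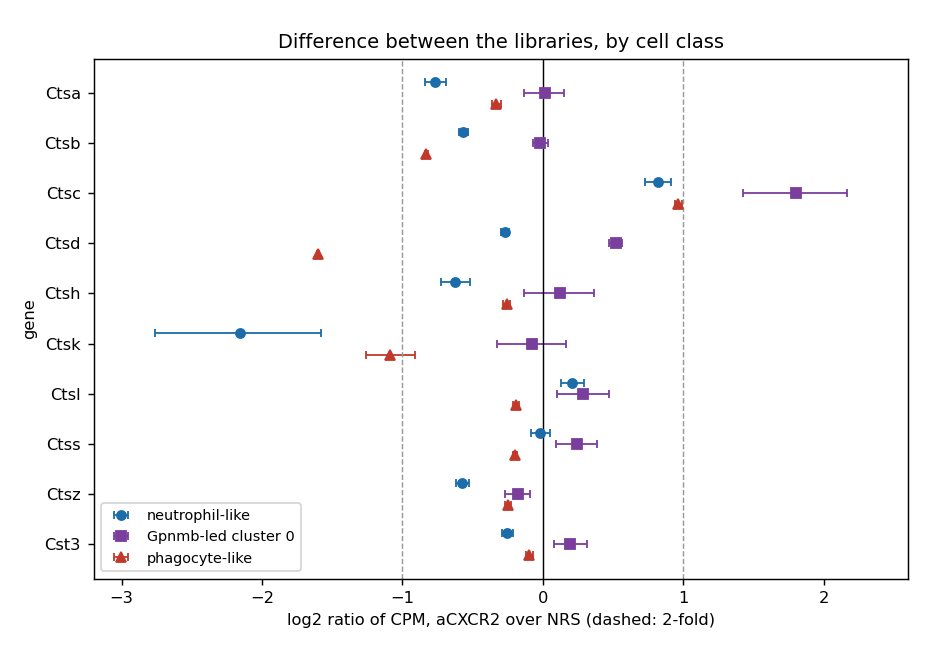
Log2 ratio of CPM in the aCXCR2 library over the NRS library for each of the 10 genes in neutrophil-like cells, the Gpnmb-led cluster and phagocyte-like cells; bars are 95% exact conditional intervals for counting error, and dashed lines mark 2-fold. Ctsc lies to the right of 0 in all 3 groups (0.82, 1.80 and 0.96), Ctsd in phagocyte-like cells is at -1.60, and Ctsk is near 0 (-0.08) in the Gpnmb-led cluster only.

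Ctsc was higher in the aCXCR2 library in neutrophil-like, phagocyte-like and photoreceptor-like cells and in the Gpnmb-led cluster, with a log2 ratio of 1.80 (1.42 to 2.17) in the Gpnmb-led cluster and 1.78 (1.76 to 1.81) over all cells. Clusters 3, 7, 10 and 12 had 1184, 1191, 1065 and 476 CPM under NRS and 1711, 1855, 1589 and 546 CPM under aCXCR2. Neutrophil-like cluster 9 went from 30.4 to 113 CPM and cluster 4 from 35.5 to 77.1 CPM, whereas cluster 6 was at 157 CPM under NRS and 136 CPM under aCXCR2. The reverse was seen in unnamed cluster 15, at 1218 CPM (1137 to 1302) under NRS and 285 CPM (209 to 380) under aCXCR2, and lens-like cells had 259 and 224 CPM with overlapping intervals. Photoreceptor-like cells went from 8.88 to 21.7 CPM, and the part of free RNA in the differences of the other groups was not tested. At equal depth, 7.69% of NRS neutrophil-like cells had a Ctsc UMI (6.61 to 8.88) and 14.3% under aCXCR2 (12.9 to 15.7), against 1.12% and 0.995% of photoreceptor-like cells. Over all possible draws the expected photoreceptor-like shares were 0.647% under NRS and 2.53% under aCXCR2. Before thinning the neutrophil-like shares were 19.9% and 52.0%, at different depths.

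**Figure D4:**
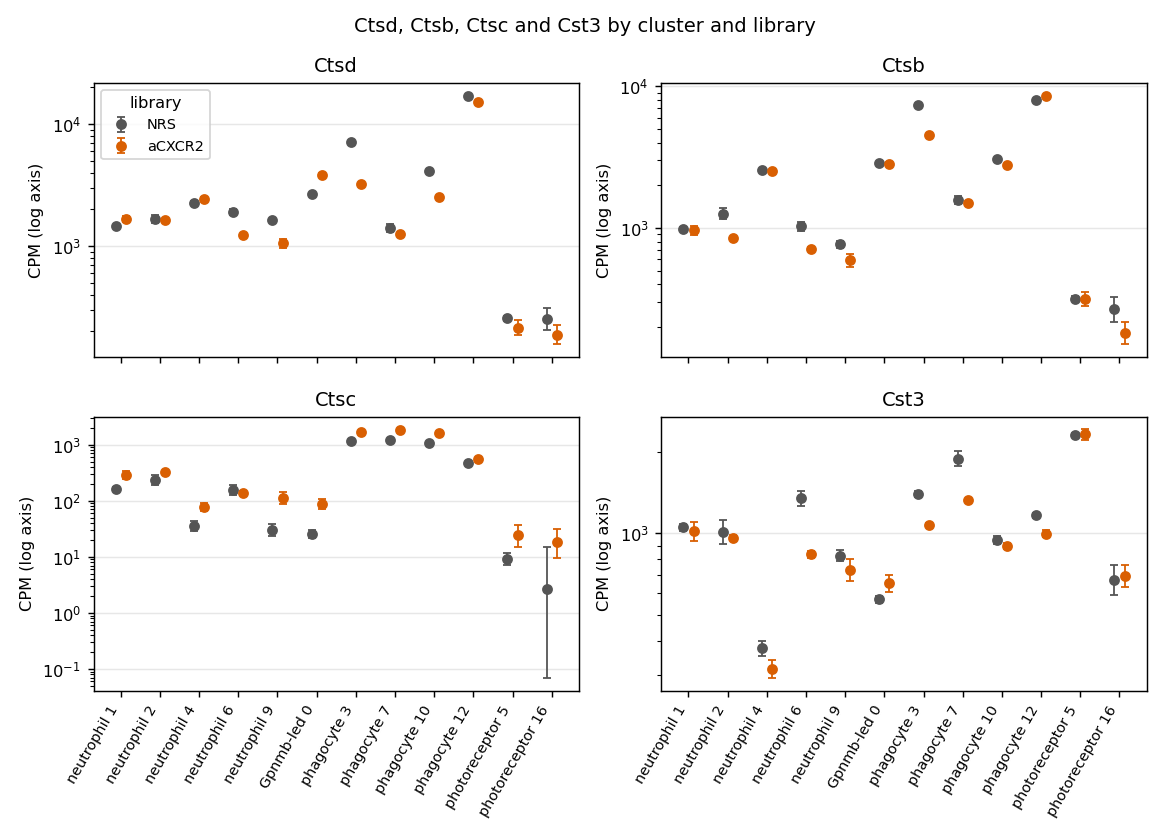
Level of Ctsd, Ctsb, Ctsc and Cst3 in 12 clusters of the neutrophil-like, Gpnmb-led, phagocyte-like and photoreceptor-like groups, as CPM on log axes, with the NRS library in grey and the aCXCR2 library in orange; bars are 95% Poisson intervals. Ctsd peaks in phagocyte-like cluster 12 in both libraries (17037 and 15089 CPM), and Ctsc is lower in cluster 12 (476 and 546 CPM) than in the other phagocyte-like clusters.

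Cystatin C followed none of the proteases. Cst3 was at 2229 CPM (NRS) and 1634 CPM (aCXCR2) in photoreceptor-like cells, 1198 and 1120 CPM in phagocyte-like, 859 and 721 CPM in neutrophil-like cells and 570 and 653 CPM in the Gpnmb-led cluster. The phagocyte over neutrophil log2 ratio was 0.48 (0.44 to 0.52) under NRS and 0.63 (0.61 to 0.66) under aCXCR2, the smallest of the 10 genes in each library. Its highest level was in unnamed cluster 17 of the aCXCR2 library, where 24 cells led by MHC class II genes had 10244 CPM, followed by cluster 15 (8281 CPM under aCXCR2 and 4429 CPM under NRS). Neutrophil-like cluster 4, the one with the most Ctsk, had the least Cst3 of the neutrophil-like clusters under NRS at 376 CPM.

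The balance of the 9 proteases to Cst3 therefore differed between groups. Cathepsins made up 2.604% of all UMIs of phagocyte-like cells under NRS and 1.57% under aCXCR2, 0.815% and 0.932% in the Gpnmb-led cluster, 0.456% and 0.359% in neutrophil-like and 0.0959% and 0.0881% in photoreceptor-like cells. For each Cst3 UMI there were 21.7 and 14.0 cathepsin UMIs in phagocyte-like, 14.3 and 14.3 in the Gpnmb-led cluster, 5.30 and 4.98 in neutrophil-like and 0.430 and 0.539 in photoreceptor-like cells. Within the neutrophil-like class, cluster 4 stood apart with 17.9 and 21.8, against 3.83 and 4.14 in cluster 1. Cluster 12 reached 29.7 and 33.8. These are ratios of transcripts, and Ctsa and Ctsd are not targets of cystatins. Ctsd made up 40.9% (NRS) and 22.3% (aCXCR2) of the cathepsin UMIs of phagocyte-like cells, and 37.5% and 39.5% in neutrophil-like cells. In cluster 12 it made up 49.1% and 44.9%, so the ratios depend in large part on Ctsd.

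Other genes of the pathway were counted from lists. Ctse, Ctso, Ctsg, Dcstamp, Ocstamp and Calcr are named here although they were too low for the naming rule, and were chosen after their values were seen. None of 13 other cathepsins reached 50 CPM in the neutrophil-like and phagocyte-like comparisons. Ctse was at 9.83 CPM and Ctso at 10.9 CPM in NRS neutrophil-like cells, and Ctsg, the granule protease of immature neutrophils, was at 0 there, under a limit of 0.278 CPM. Among cystatins, stefins and the legumain gene, 17 of 19 were in the files. In neutrophil-like cells 7 were measured. Against 2.06% of all genes higher and 10.2% lower, 5 of these were at least 2-fold higher under aCXCR2 and 2 lower. Their median log2 ratio was 2.81, against -0.42 over all genes. The higher ones were genes of the stefin A family, with Stfa3 at 8.998 CPM under NRS and 96.6 CPM under aCXCR2 and BC100530 at 33.8 and 367 CPM. They are near-identical copies of one another, so their reads may have been split or dropped in counting. The lower ones were Cstb, the widely made cytosolic stefin, at 2076 CPM under NRS and 1016 CPM under aCXCR2, and Lgmn, the legumain that processes cathepsin precursors, at 62.0 and 22.9 CPM. In phagocyte-like over neutrophil-like cells, 2 of 5 were at least 2-fold higher and 2 lower under NRS, and 1 of 7 higher and 5 lower under aCXCR2. Over all genes 14.2% were higher and 25.7% lower under NRS, and 27.3% and 15.1% under aCXCR2. Lgmn was higher in phagocyte-like cells in both libraries (log2 ratios 4.52 and 5.49).

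Lysosomal hydrolases followed the cathepsins into phagocyte-like cells. Of 30 listed, 24 were measured under NRS and 21 under aCXCR2, and 17 and 14 were at least 2-fold higher in phagocyte-like than in neutrophil-like cells, with 0 lower in either, against 14.2% and 27.3% of all genes higher. Scpep1, a serine carboxypeptidase, went from 3.15 to 114 CPM under NRS, whereas the sialidase gene Neu1 was at 186 CPM in neutrophil-like and 114 CPM in phagocyte-like cells. In the Gpnmb-led cluster over neutrophil-like cells under NRS, 8 of 20 hydrolases were higher and 1 lower (14 of 20 and 0 under aCXCR2), including Psap, the saposin precursor, at 5049 against 1735 CPM, and Gm2a, the ganglioside activator, at 95.2 against 234 CPM. Membrane proteins and proton pump subunits were flatter. Of 23 measured in phagocyte-like over neutrophil-like cells, 4 were at least 2-fold higher under NRS and 6 under aCXCR2, with 0 lower, shares near the 14.2% and 27.3% of all genes. In the Gpnmb-led cluster 8 of 25 were higher and 0 lower under NRS, and 17 of 24 and 0 under aCXCR2, against 5.59% and 29.1% of all genes higher. Under NRS these included Cd68 (1032 against 335 CPM) and the pump subunit gene Atp6v1c1 (426 against 137 CPM). Between the libraries, 6 of 16 hydrolases and 3 of 22 membrane or pump genes were at least 2-fold lower in aCXCR2 neutrophil-like cells, and 3 of 24 and 1 of 23 in phagocyte-like cells, with 0 higher in any of the 4 counts. Over all genes 10.2% and 2.56% were lower in these classes, so the shares of membrane and pump genes were near those of all genes. The medians in neutrophil-like cells were -0.81 for hydrolases and -0.60 for membrane and pump genes, against -0.42 over all genes, before the TMM shift of 0.65.

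Sorting receptors and regulators gave 1 of 4 measured members at least 2-fold higher in phagocyte-like NRS cells (Sort1, 52.6 against 11.6 CPM) and 0 of 3 under aCXCR2. Over all genes 14.2% (NRS) and 27.3% (aCXCR2) were higher by as much in phagocyte-like over neutrophil-like cells. The mannose 6-phosphate receptor gene M6pr was at 195 CPM (NRS) and 104 CPM (aCXCR2) in neutrophil-like cells, and at 164 and 199 CPM in phagocyte-like cells. Of 13 osteoclast-type genes (Acp5 is also among the hydrolases), 3 were measured in the class comparisons, and all 3 (Acp5, Gpnmb and Spp1) were at least 2-fold higher in phagocyte-like cells in both libraries. In the Gpnmb-led cluster over neutrophil-like cells, 1 of 3 passed 2-fold under NRS (Gpnmb, 807 against 85.0 CPM) and 2 of 3 under aCXCR2 (Gpnmb, 1049.5 against 29.5 CPM, and Acp5, the tartrate-resistant phosphatase gene, 84.6 against 25.9 CPM). Under NRS Acp5 was at 162 against 81.3 CPM. Over all genes 5.59% (NRS) and 29.1% (aCXCR2) were higher in the Gpnmb-led cluster, and so few listed genes give no reliable share. Gpnmb is also a leading gene of that cluster. The osteoclast fusion genes Dcstamp and Ocstamp were at 0 in that cluster under NRS, under a limit of 0.442 CPM, and the calcitonin receptor gene Calcr was at 0 in phagocyte-like, neutrophil-like and Gpnmb-led NRS cells. Gpnmb and Spp1 were lower in aCXCR2 phagocyte-like cells (1217 against 293 CPM and 5360 against 1108 CPM).

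Across 28 profiles of cluster and library with at least 50 cells, the genes most like Ctsk in log2(CPM + 10) were F7 (Pearson r 0.74), Gpnmb (0.70), Lrrc58 (0.70), Osbpl3 (0.70) and Tns3 (0.68), and those most like Cst3 were Scp2 (0.89), Copg1 (0.86), H2afy (0.85), Oat (0.84) and Ndufb11 (0.84). The profiles share 2 libraries and 17 clusters, so these are descriptions. Among the 10 members, Ctsb and Ctsz (0.95), Ctss and Ctsh (0.94), and Ctsa and Ctsb (0.94) were closest. Ctsk had its highest value with Ctsa (0.54) and its lowest among the proteases with Ctsc (0.14). Cst3 lay between -0.23 (with Ctsz) and 0.40 (with Ctsl). Cathepsin K and cystatin C were thus the members whose levels followed the others least across clusters. Ctsk was under the added 10 CPM in many of these profiles, as in cluster 6 (1.52 CPM under NRS and 0.942 CPM under aCXCR2). That flattens its differences there, and the effect on its r was not tested.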

How the data were processed

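The deposited values were raw UMI counts per gene and barcode for 2 libraries, 1 per treatment, as the authors' filtered matrices gave them. Cell Ranger and Seurat were used per the submitters' processing notes, which list the build GRCh38 although the gene identifiers are mouse. The mouse build and annotation are not given in the sources used here. Columns of other series numbered 0. Both libraries were clustered together (scanpy 1.11.5, 2000 variable genes, 30 principal components, 15 neighbours, leidenalg 0.10.2, Leiden resolution 1), leaving out 117 member and listed genes. Clusters were named from marker lists by a scoring rule set after the data were seen. Different clusters may be named otherwise in the study. The doublet caller marked 0 and 4 cells, so it did not work and doublets were taken to remain. Barcodes rich in globin transcripts (12 and 7) were set apart.

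Member UMIs were summed per class and library and divided by the class's UMIs. Intervals were exact Poisson (CPM), Clopper-Pearson (shares) and exact conditional binomial (ratios), at 95%. A count of 0 was given a limit of 3 counts. Genes were called at 2-fold among those with 50 CPM or more in 1 of the 2 sums, with no p-value. On simulated data, 63 of 63 genes set at 3-fold, 68 of 68 at 6-fold and 0 of 68 at 1.5-fold passed 2-fold (phagocyte-like over neutrophil-like, NRS, 3036 genes). The simulated counts were Poisson, with no variation between cells, animals or libraries. They check the calculation and not the reliability of the calls. TMM factors came from edgeR 4.0.16. All 10 members are named, with up to 4 genes per list, those with the largest and smallest ratios. The members, lists and naming rule were chosen with earlier results of these data known.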

Additional observations from a re-analysis of the deposited data

Results flagged for a closer look

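Ctsl, the cathepsin L gene, differed between the libraries in opposite directions in the 2 main classes. The log2 ratio of aCXCR2 over NRS was 0.21 (0.13 to 0.29) in neutrophil-like cells and -0.19 (-0.21 to -0.17) in phagocyte-like cells. The phagocyte-like direction was not shared by all clusters of that class. From NRS to aCXCR2, Ctsl rose in clusters 3 (1355 to 1749 CPM) and 7 (366 to 972 CPM). It fell in clusters 10 (2487 to 1838 CPM) and 12 (1489 to 1229 CPM). With 1 library per treatment this difference between classes was not tested.

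Barcodes that the cell filter left out, 1659 under NRS and 725 under aCXCR2, also held Ctsk UMIs, at 3.69 CPM (2.75 to 4.85) and 4.83 CPM (2.91 to 7.54). Of these barcodes, 1653 and 719 had more than 10% mitochondrial UMIs.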

How the results depend on the processing

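The log2 ratio of phagocyte-like over neutrophil-like Ctsk under NRS was 1.89, and became 4.04 at resolution 0.5, 1.26 with the libraries clustered separately and 2.54 without cluster 4. Adding the Gpnmb-led cluster to the neutrophil-like class, chosen after seeing the data, gave -1.24 under NRS, 0.63 under aCXCR2 and -2.96 for aCXCR2 over NRS in neutrophil-like cells. That last ratio was -2.16 and became -0.10 at resolution 0.5, -1.57 without cluster 4 and -1.51 with TMM. At resolution 0.5 large NRS clusters were unnamed, so the neutrophil-like class was a smaller set of cells. In phagocyte-like cells the ratio of -1.09 became -1.36 with a stricter cell filter and -0.77 as a mean of single-cell CPM. TMM reversed neutrophil-like Ctsb (0.085), Ctsd (0.38), Ctsh (0.027), Ctsz (0.078) and Cst3 (0.40). Over 396 values of the other members, 209 moved by less than their interval, 182 moved by more and these 5 reversed; the cause was not tested. Leaving out barcodes present in both libraries, also added after seeing the data, left the 4 Ctsk ratios within their intervals. With a minimum of 10 CPM the gene counts were 1339 higher and 1696 lower (phagocyte-like over neutrophil-like, NRS), 2448 and 832 (aCXCR2), 119 and 1307 (neutrophil-like, aCXCR2 over NRS) and 231 and 186 (phagocyte-like). With no minimum they were 2673 and 3695, 4925 and 2896, 420 and 5261, and 717 and 2022, and more genes were tested in both settings. No paired analysis was possible because each treatment had 1 library. Depth limits the neutrophil-like Ctsk level, which rests on 80 and 37 UMIs.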
